A study of Mus musculus with 8 samples.

Results

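The transcriptome of C3H10T1/2 cells expressing histone H3.3 with lysine 36 replaced by arginine (H3.3 K36R) was set against that of the same cells expressing wild-type H3.3 (H3.3 WT). C3H10T1/2 is a multipotent mesenchymal line derived from mouse embryos. Each line had 1 RNA-seq library, so the comparison is a difference between 2 libraries and no test or p-value can be given for it. Genes were kept where the mean of both log2 values lay at least 1 above the lowest value of the deposited table, which corresponds to about 30.97 normalised reads and keeps 14012 of 31276 genes. The genes nearest the limit, with no test made on them, were Serpina3h and Snord68 just inside (30.4 normalised reads in H3.3 K36R and 31.6 in H3.3 WT for each) and Ttyh1 and Mir7658 just outside (29.4 and 32.5).

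Lysine 36 of histone H3 is methylated over transcribed genes and in intergenic domains, by Setd2 and by the Nsd and Ash1l enzymes, and the methylated residue limits the activity of Polycomb repressive complex 2 (PRC2) on the same histone tail. H3.3 is the variant placed into chromatin outside DNA replication, while H3.1 is deposited during replication. Arginine keeps the positive charge of lysine but cannot be methylated by lysine methyltransferases. It therefore differs from methionine and isoleucine at this position (K36M, K36I), which are known to inhibit those enzymes in trans, and from alanine and leucine (K36A, K36L), which carry no charge.

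Every group was a C3H10T1/2 line stably expressing 1 histone H3 transgene with FLAG and HA epitope tags, at passage 10 to 15, grown in DMEM with 10% fetal bovine serum. The series holds 8 such lines with 1 library each: H3.3 K36R, K36A, K36L, K36M, K36I and WT, and H3.1 K36R and K36M. There is no line without a transgene among the libraries used here, and the cells kept their own H3 genes in all groups. The labels do not give the promoter of the transgene, its level, or whether a line is a clone or a pool, so differences between transgenes and between lines of the same cells cannot be told apart.

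Sequencing depth was 63433602 reads assigned to genes in H3.3 K36R and 62788472 in H3.3 WT, and 45448249 to 68020958 in the other 6 libraries. At least 1 read was found for 19029 genes in H3.3 K36R and 18766 in H3.3 WT. The 45S ribosomal RNA precursor gene Rn45s took 1.66% of reads in H3.3 K36R and 2.05% in H3.3 WT. The transgenes could not be checked from the table, because reads of a tagged H3.3 cannot be told from those of the endogenous genes H3f3a and H3f3b, which had 7888 and 72642 normalised reads in H3.3 K36R and 9361 and 81513 in H3.3 WT. All 10 mesenchymal markers passed the filter and none differed by 1 or more, Vim with 296505 normalised reads in H3.3 K36R and 235194 in H3.3 WT. Of the markers of other cell types, 11 of 21 passed the filter in these libraries and none differed by 1 or more. Some that define a cell type were at or near 0 in both libraries: Ptprc (leukocyte) had 4 reads in H3.3 K36R and 0 in H3.3 WT, Epcam (epithelial) 0 and 1.86 normalised reads, Krt18 0 in both, Kdr (endothelial) 7.60 and 1.86, Sox10 (neural crest) 0 and 3.72, and Myod1 (skeletal muscle) 0 in both. Others were well above 0: Krt14 of the epithelial list (764 normalised reads in H3.3 K36R and 1462 in H3.3 WT), Cdh1 (292 and 348), Tek of the endothelial list (2634 and 1597), and Nes (1826 and 2419), Tubb3 (2439 and 1883) and Map2 (15698 and 12738) of the neural list. Their part in the differences was not tested.

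Relative to H3.3 WT, 154 genes (1.10%) were at least 1 higher on the log2 scale in H3.3 K36R and 100 (0.714%) were at least 1 lower, together 254 (1.81%). Differences of 2 or more were found for 16 genes in the higher direction and 7 in the lower. The middle of the distribution was narrow: the median difference was 0.0028, the 5th and 95th percentiles were -0.41 and 0.46, and 12954 genes (92.4%) lay within 0.5 of 0. Genes with lower mean values made up more of the calls, since with genes divided into 4 equal bins by mean value, 2.40% of the lowest bin were at least 1 higher, against 0.400% of the highest bin. Among all pairs of H3.3 lines that are neither K36M nor K36I, K36R against WT was not the widest. At least 1 either way were 404 genes (2.88%) for K36R minus K36A, 363 (2.57%) for K36R minus K36L, 293 (2.10%) for K36A minus WT, 146 (1.04%) for K36L minus WT and 172 (1.22%) for K36A minus K36L. These pairs share libraries, so their counts are not independent.

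**Figure D1:**
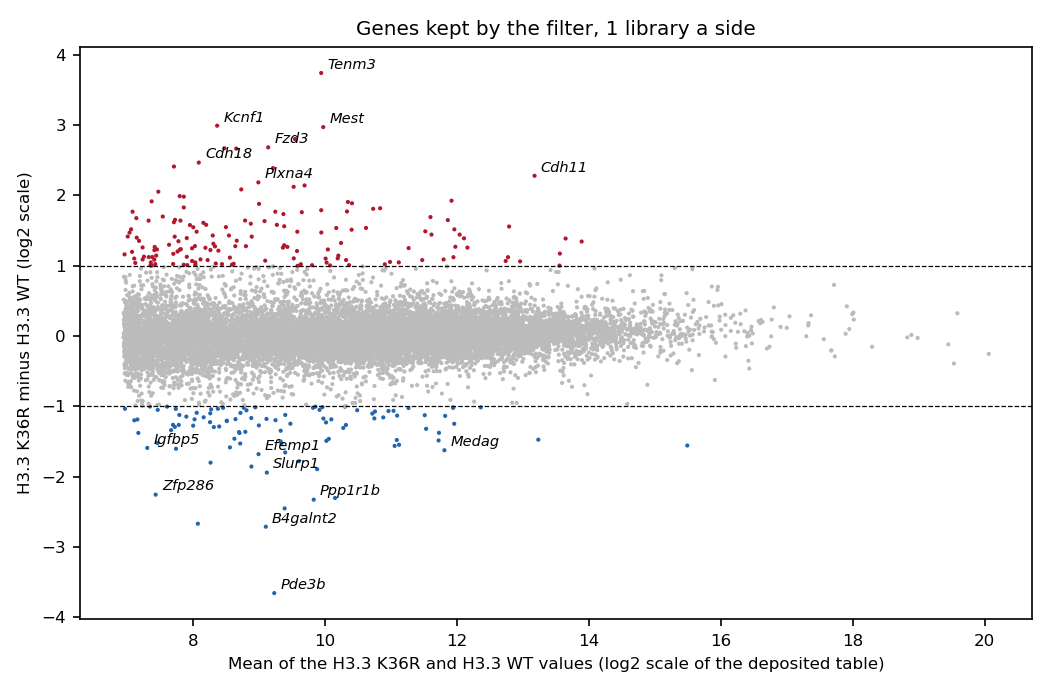
Difference between H3.3 K36R and H3.3 WT (vertical axis, log2 scale of the deposited table) against the mean of both values (horizontal axis, same scale) for the 14012 genes kept; each point is a gene, red at least 1 higher (154) and blue at least 1 lower (100), with dashed lines at 1 and -1. Most points lie within 0.5 of 0, and the widest differences are those of Tenm3 at 3.74 and Pde3b at -3.66.

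The largest difference in the higher direction belonged to Tenm3, a teneurin that guides cell adhesion and neuronal wiring (chr8:48227682-48843951). It had 3484 normalised reads in H3.3 K36R, against 159.9 in H3.3 WT, a ratio of 21.8 with a 95% exact counting interval of 18.7 to 25.5. Its other values were 22.03 in K36A, 60.4 in K36L, 483 in K36M and 85.1 in K36I among the H3.3 lines, and 2578 in H3.1 K36R and 1628 in H3.1 K36M. Both K36R libraries were therefore the highest of the 8, with H3.1 K36M next. Counting intervals such as this cover the sampling of reads only and say nothing of variation between cultures. They left out a ratio of 1 for each of the 30 genes with the widest differences, 15 each way.

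The other genes with the widest positive differences have varied roles. Kcnf1, a modifier subunit of voltage-gated potassium channels, had 813 normalised reads in H3.3 K36R, against 26.0 in H3.3 WT (2.99 on the log2 scale), and 429 in K36A, 9.74 in K36L, 517 in K36M and 171 in K36I. Fzd3, a WNT receptor used in planar polarity and axon tract formation, had 1311 normalised reads in H3.3 K36R, against 116 in H3.3 WT (2.68). Slc2a13, a proton-coupled inositol transporter, had 898 normalised reads in H3.3 K36R, against 60.4 in H3.3 WT (2.67), with 24.9 in K36A, 49.7 in K36L, 42.9 in K36M and 45.9 in K36I and 624 in H3.1 K36R and 187 in H3.1 K36M. Slc2a13 thus showed a single high value among the H3.3 lines and a second one in the other K36R line. Npy1r, a receptor for neuropeptide Y, had 1618 normalised reads in H3.3 K36R, against 279.7 in H3.3 WT (2.14), and 874 in H3.1 K36R and 313 in H3.1 K36M, while the other H3.3 lines had 110.1 in K36A, 123 in K36L, 151 in K36M and 34.0 in K36I. Rnf130, a membrane-bound ubiquitin ligase, was 2.67 higher (781 against 44.6), and Plag1, a zinc-finger transcription factor of growth, 2.09 higher (758 against 101.3), where the pair in brackets gives normalised reads in H3.3 K36R against H3.3 WT, here and below. For Plag1 the WT library was the lowest of the 8, the other 6 having 361 to 763 normalised reads.

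In the lower direction the widest difference was that of Pde3b, a phosphodiesterase that degrades cyclic AMP in adipocytes and other insulin-responsive cells (chr7:114415281-114539251). Pde3b had 68.4 normalised reads in H3.3 K36R, against 2016 in H3.3 WT, a ratio of 0.0339 (95% exact counting interval 0.0264 to 0.0429). The other H3.3 lines had 491 in K36A, 1041 in K36L, 342 in K36M and 296 in K36I, so that WT was highest and K36R lowest among the H3.3 lines, and both H3.1 lines were lower still (6.56 in H3.1 K36R and 15.8 in H3.1 K36M). B4galnt2, a glycosyltransferase of the Sd(a) antigen, had 109 normalised reads in H3.3 K36R, against 1289 in H3.3 WT (-2.71), and 79.8 in H3.1 K36R and 212 in H3.1 K36M. Aim2, a sensor of cytosolic DNA, had 18.99 normalised reads in H3.3 K36R, against 562 in H3.3 WT (-2.67). Its values were 365 in K36A, 353 in K36L, 746 in K36M and 251 in K36I in the other H3.3 lines, which places K36R alone at the bottom. Zfp286, a zinc-finger protein gene, had 3.798 normalised reads in H3.3 K36R, against 265 in H3.3 WT (-2.26), and Ppp1r1b, which encodes the protein phosphatase 1 inhibitor DARPP-32, 292 normalised reads in H3.3 K36R, against 1919 in H3.3 WT (-2.33). Ppp1r1b was high in K36A and K36L (2009.5 and 1746) and low in K36M and K36I (64.9 and 237), with K36R between. Medag, named for its role in adipocyte formation, was -1.62 (1927 against 6191), Clec11a, a secreted osteogenic lectin, -1.78 (307 against 1326), and Hfe, the hemochromatosis gene, -1.60 (30.4 against 260.2). Clec11a was highest in the other K36R line, H3.1 K36R, at 2098 normalised reads.

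H3.3 K36R was the highest of all 8 libraries for 11 of the 15 genes with the widest positive differences and the lowest of all 8 for 3 of the 15 with the widest negative ones, Aim2, Zfp286 and Hfe. H3.3 WT was the lowest of the 8 for 6 of the first 15 (Ndn, Fzd3, Rnf130, Myl9, Tagln and Plag1) and the highest for 3 of the second (Pde3b, Zfp286 and Igfbp5). Choosing genes for a wide difference between these libraries favours such placements, so they are a description. Of the 30 genes, 10 have exons that overlap another annotated gene. The overlap is on the opposite strand for Tenm3, Mest, Plxna4, Tagln, B4galnt2, Ppp1r1b, Zfp286 and Slurp1, and on the same strand for Fgfr2 and Medag. With the strand of counting not given, reads of such pairs cannot be separated.

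**Figure D2:**
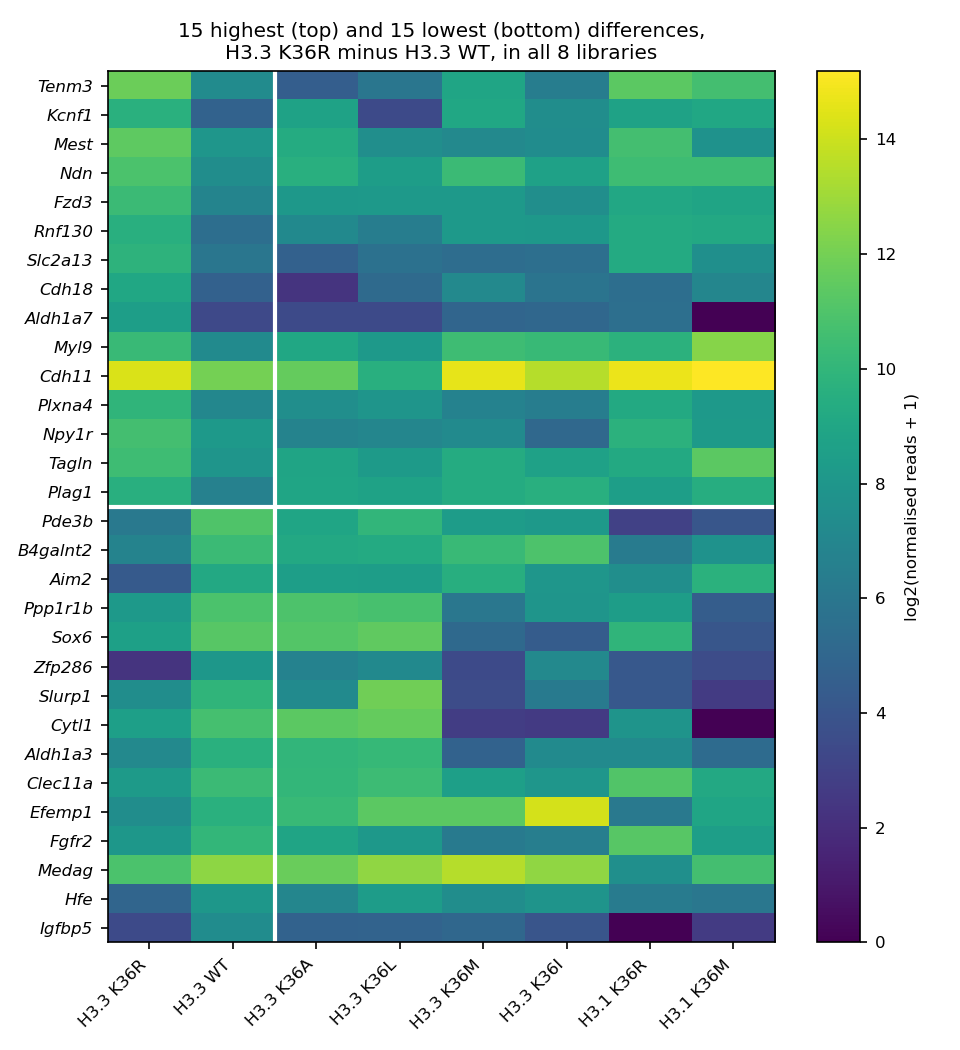
Level of the 15 genes with the highest and the 15 with the lowest difference between H3.3 K36R and H3.3 WT (rows) in each of the 8 libraries (columns), as log2(normalised reads + 1) by colour; the white vertical line sets H3.3 K36R and H3.3 WT apart from the other 6 libraries. The H3.1 K36R column is bright beside H3.3 K36R for Tenm3 (2578 normalised reads), Mest (1637) and Slc2a13 (624), and dark for Pde3b (6.56). In other rows it lies far from H3.3 K36R. It has 43.7 for Cdh18 and 45.9 for Aldh1a7 among the highest 15, and 2098 for Clec11a and 2376 for Fgfr2 among the lowest 15.

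Imprinted genes, which are expressed from 1 parental copy, gave the largest number of list members in the higher direction: 4 of the 20 kept were at least 1 higher, where 1.10% of all genes kept were, and none was at least 1 lower. The median was 0.19, and 12 of the 20 lay above 0. All 4 (Mest, Ndn, Peg12 and Peg3) are known to be expressed from the paternal copy in mouse. Mest, an alpha/beta-hydrolase of mesoderm and adipose tissue, had 2699.6 normalised reads in H3.3 K36R, against 246 in H3.3 WT, a ratio of 11.0 (9.66 to 12.5). The other H3.3 lines had 652 in K36A, 178 in K36L, 142 in K36M and 168 in K36I, and the H3.1 lines 1637 with K36R and 209 with K36M. Both K36R libraries were thus the highest for Mest. Ndn, a MAGE-family growth suppressor of the Prader-Willi region, had 1855 normalised reads in H3.3 K36R, against 173 in H3.3 WT, and the other H3.3 lines 755 in K36A, 349 in K36L, 1302 in K36M and 412 in K36I. Here WT was the lowest of the 8 and K36R the highest, with the H3.1 lines at 1408 (K36R) and 1443 (K36M). Peg12, which encodes a Frat-type regulator of WNT signalling, had 502 normalised reads in H3.3 K36R, against 106 in H3.3 WT (1.55). On chromosome 7 the span of Ndn ends at 62350262 and that of Peg12 begins at 62461871. The 2 genes were not next to each other among the genes kept. Peg3, a zinc-finger protein of the proximal end of chromosome 7, had 126 normalised reads in H3.3 K36R, against 13.01 in H3.3 WT (1.26), a ratio of 9.71 (5.59 to 18.2). For Peg3 the WT library was the lowest of the 8, and H3.1 K36R had 59.0. The remaining lines, at 186 to 1138, all lay above H3.3 K36R. Among other members of the list, chosen after their values were seen, Meg3 differed by -0.05, Rian by 0.03, Igf2r by -0.29 and H19 by 0.37 (217 against 145). These picked genes do not stand for the rest of the list. The list was not divided by parental copy, and its share of paternally expressed members was not counted. Nothing is therefore read from the shared parental copy of Mest, Ndn, Peg12 and Peg3.

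The promoters of 3 of these genes are shown because imprinting is known to act through methylation of CG pairs at control regions, some of which are promoters. Methylation itself was not measured here. They come from RefSeq on GRCm38.p6 and run from 250 bases before to 50 after the annotated start, 5′ to 3′ on the strand of the gene, with every CG in capitals (the same letters on either strand). Mest is at chr6:30737800-30738099 on the plus strand, the most CG-rich of its 3 listed promoters, Ndn at chr7:62348027-62348326 on the plus strand and Peg12 at chr7:62464461-62464760 on the minus strand.
Mest: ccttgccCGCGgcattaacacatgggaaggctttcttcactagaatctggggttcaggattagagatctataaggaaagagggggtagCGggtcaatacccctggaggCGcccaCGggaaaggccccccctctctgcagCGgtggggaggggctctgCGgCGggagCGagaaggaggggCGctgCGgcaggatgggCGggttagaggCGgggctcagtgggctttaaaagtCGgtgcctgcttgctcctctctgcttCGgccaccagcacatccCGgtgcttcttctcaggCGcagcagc
Ndn: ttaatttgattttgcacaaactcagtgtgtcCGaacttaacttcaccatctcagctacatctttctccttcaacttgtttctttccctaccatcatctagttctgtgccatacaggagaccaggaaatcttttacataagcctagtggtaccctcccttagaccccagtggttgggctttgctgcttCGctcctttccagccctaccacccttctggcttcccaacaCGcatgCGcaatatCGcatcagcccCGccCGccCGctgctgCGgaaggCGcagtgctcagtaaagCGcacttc
Peg12: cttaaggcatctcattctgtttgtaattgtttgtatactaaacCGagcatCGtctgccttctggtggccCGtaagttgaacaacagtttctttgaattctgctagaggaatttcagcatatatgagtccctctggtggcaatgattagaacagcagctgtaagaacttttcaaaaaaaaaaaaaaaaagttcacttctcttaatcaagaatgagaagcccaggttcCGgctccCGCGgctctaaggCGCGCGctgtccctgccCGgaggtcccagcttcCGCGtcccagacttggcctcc
These windows hold 17, 11 and 12 CG pairs, and that of Peg3 holds 13, where the median of the 32851 promoters of the table is 7. At least as many are found in 31.4% of promoters for Mest, 41.4% for Ndn, 39.6% for Peg12 and 37.9% for Peg3.

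Among lists with at least 5 genes kept, cadherins and small leucine-rich proteoglycans with matricellular genes had the highest medians, also with chromosome medians subtracted (0.49 and 0.54, an alternative chosen after seeing the data). Cadherins hold cells together through calcium-dependent contacts, and 3 of the 15 kept members of the cadherin and protocadherin list were at least 1 higher (1.10% of all genes kept) and none at least 1 lower. Their median was 0.64, against 0.0028 over all genes kept. Cdh11, the cadherin of mesenchymal cells and osteoblasts, had 20309 normalised reads in H3.3 K36R, against 4083 in H3.3 WT (2.28). Its other values were 3059 in K36A, 772 in K36L, 24938 in K36M and 11639 in K36I, and 27647 in H3.1 K36R and 37301 in H3.1 K36M, so K36R sat with the lines of high Cdh11 and WT with K36A and K36L. Cdh18 had 523 normalised reads in H3.3 K36R, against 25.1 in H3.3 WT (2.47), and Cdh10, a close relative, 1089 normalised reads in H3.3 K36R, against 250.01 in H3.3 WT (1.74). For both, H3.3 K36R was the highest of the 8 libraries, while H3.1 K36R had 43.7 for Cdh18 and 129 for Cdh10. Cdh2, or N-cadherin, was 0.67 (18279 against 11465), and Cdh1, or E-cadherin, -0.19 (292 against 348).

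Small leucine-rich proteoglycans and matricellular proteins coat collagen fibrils and tune the contact of cells with matrix. Of 18 kept, 2 were at least 1 higher and none at least 1 lower (median 0.54). Postn, or periostin, had 7430.4 normalised reads in H3.3 K36R, against 1866 in H3.3 WT (1.93), and Aspn, or asporin, 18037 normalised reads in H3.3 K36R, against 7928 in H3.3 WT (1.17). Both were highest in an H3.1 line, Postn at 35468 in H3.1 K36M and Aspn at 26347 in H3.1 K36R. Dcn, or decorin, was 0.83 (2144 against 1152). None of the 19 kept members of the list of fibrillar and fibril-associated collagens reached 1 in either direction (median 0.22). That list leaves out Col11a1, which is given with the cartilage genes at -1.56. The widest of its members were Col3a1 at 0.73 (277008 against 167235) and Col18a1 at 0.67 (826 against 477). The list is broader than its name, as Col18a1 is neither a fibrillar nor a fibril-associated collagen. Basement membrane genes had 1 of 19 at least 1 higher, the laminin chain gene Lamb1 at 1.09 (5079 against 2322), with a median of 0.28. For Lamb1 the WT library was the lowest of all, the libraries outside the pair lying at 3849 to 28300. Elastic fibre genes had 1 of 19 on each side (median 0.23): Mfap5, a microfibril component, at 1.82 (3316 against 855), and Efemp1, or fibulin-3, at -1.68 (175 against 794). Mfap5 was also high in the H3.1 lines (2718 in H3.1 K36R and 3203 in H3.1 K36M), against 337 in K36A, 340.04 in K36L, 495 in K36M and 184 in K36I in the other H3.3 lines.

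Proteases that remodel matrix had 2 of 23 at least 1 higher and none lower (median 0.30). These were Mmp16, a membrane-bound metalloproteinase, at 1.39 (7031 against 2605), and Adam12, a disintegrin metalloproteinase, at 1.32 (1800.4 against 649). K36R was the highest of the 8 for Mmp16, the other 6 libraries lying at 2601 to 3703. Integrins, the receptors for matrix, had 1 of 17 on each side (median 0.03): Itga9 was 1.02 (260.2 against 81.8) and Itga3 -1.27 (217 against 677).

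**Figure D3:**
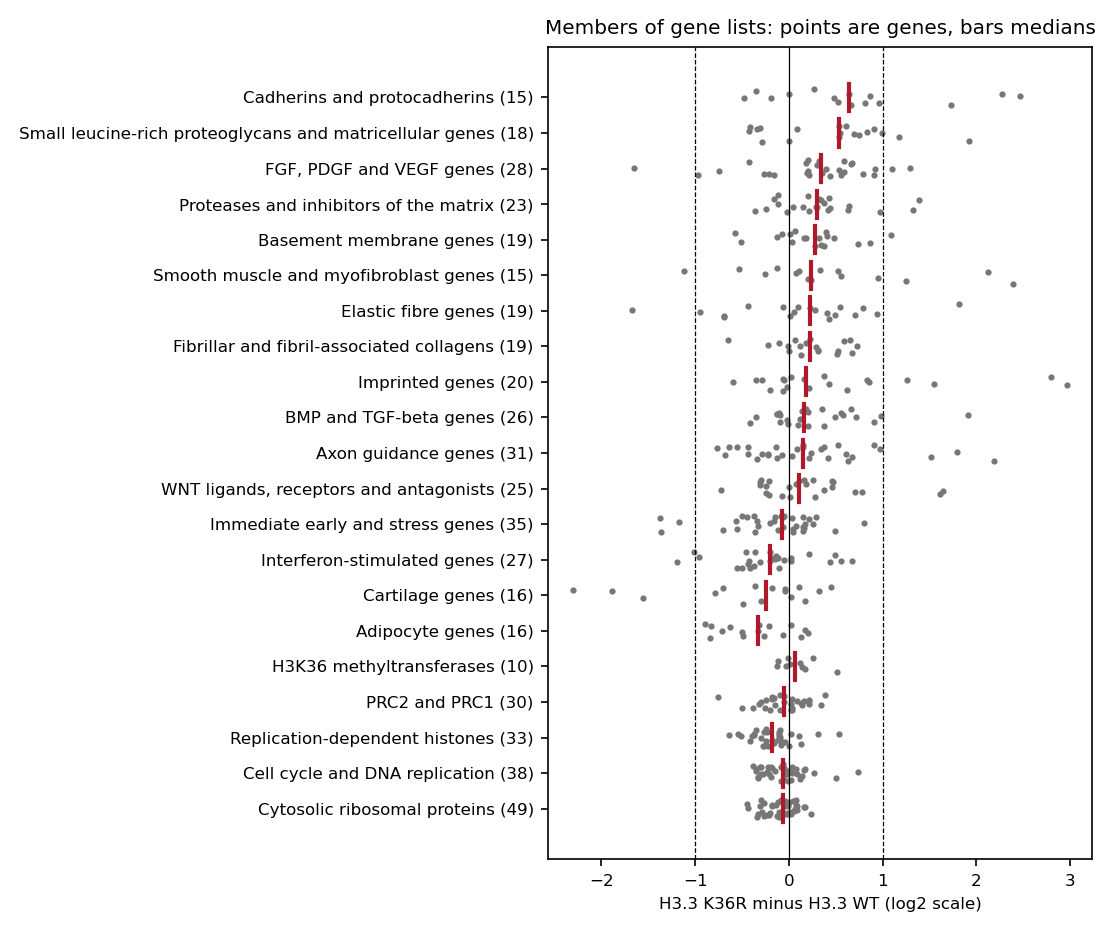
Difference between H3.3 K36R and H3.3 WT (horizontal axis, log2 scale) for the kept members of 21 gene lists (rows, number kept in brackets); points are genes, red bars list medians, and dashed lines mark 1 and -1. The medians run from -0.33 for adipocyte genes to 0.64 for cadherins, and most points of the chromatin, histone, cell cycle and ribosomal protein lists lie close to 0.

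Contractile genes of smooth muscle and myofibroblasts, many of them known targets of serum response factor, had 3 of 15 kept at least 1 higher and 1 at least 1 lower (median 0.24). Myl9, a regulatory light chain of smooth muscle myosin, had 1240.1 normalised reads in H3.3 K36R, against 151 in H3.3 WT, a ratio of 8.24 (6.99 to 9.76). Tagln, which encodes the actin-binding protein transgelin, had 1419.6 normalised reads in H3.3 K36R, against 241 in H3.3 WT, a ratio of 5.90 (5.17 to 6.76). In both genes the WT library was the lowest of the 8, and H3.1 K36M the highest at 5524 and 2660.1. Actg2, the enteric smooth muscle actin, was 1.26 (336 against 85.5), and Acta2, the actin of myofibroblasts, 0.95 (67598 against 34856). Mylk, the kinase that phosphorylates myosin light chains, went the other way at -1.12 (343 against 877). Myh11, the smooth muscle myosin heavy chain, was low in both libraries (51.3 against 27.0), and Cnn1, or calponin, had 12.3 and 5.58 and did not pass the filter. None of 7 skeletal muscle genes reached 1 (median 0.18).

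The Myl9 promoter is shown because its gene had the widest difference of the contractile list and serum response factor binds CArG boxes. It is RefSeq's 300 bases at chr2:156775214-156775513 on the plus strand of GRCm38.p6, with the CArG box in capitals, searched on both strands and not overlapping another. The box starts 161 bases before the start site.
Myl9: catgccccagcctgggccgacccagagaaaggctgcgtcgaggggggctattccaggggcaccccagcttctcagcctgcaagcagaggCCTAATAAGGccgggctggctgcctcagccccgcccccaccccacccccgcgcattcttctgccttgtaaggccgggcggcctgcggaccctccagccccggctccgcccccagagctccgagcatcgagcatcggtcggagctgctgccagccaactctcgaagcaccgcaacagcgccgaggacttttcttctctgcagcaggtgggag
Such a box is in 1.63% of the 32851 promoters and in 3 of the 12 contractile list members with a promoter in the table, Myl9, Cnn2 and Srf. Tagln and Actg2 were not among the promoters used here. The match describes the letters and is no evidence that the site is bound in these cells.

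Genes of cartilage and fat, fates open to C3H10T1/2 cells, gave the lowest medians of the same lists. With chromosome medians subtracted, replication-dependent histones were lowest at -0.36, adipocyte genes were at -0.27 and cartilage genes at -0.13. Of 16 cartilage genes kept, none was at least 1 higher and 3 were at least 1 lower (median -0.24). Sox6, which works with Sox5 and Sox9 as a transcription factor of chondrocytes, had 397 normalised reads in H3.3 K36R, against 2411 in H3.3 WT (-2.30). The other lines had 2239 in K36A, 2834 in K36L, 36.3 in K36M and 20.4 in K36I, and 981 in H3.1 K36R and 15.8 in H3.1 K36M, which places K36R between the group of WT, K36A and K36L and the K36M and K36I lines. Cytl1, a secreted factor of chondrocytes, had 374 normalised reads in H3.3 K36R, against 1699 in H3.3 WT (-1.89), and its order over the lines was similar, with 2629 in K36A, 3110.04 in K36L, 5.73 in K36M and 5.10 in K36I. Col11a1, a fibrillar collagen of cartilage, had 26764 normalised reads in H3.3 K36R, against 78965 in H3.3 WT (-1.56), and 26986 in H3.1 K36R. Sox9 differed by -0.04 (3037 against 3127) and Col2a1, the main cartilage collagen, by -0.48 (40791 against 57134). None of 16 adipocyte genes reached 1 in either direction (median -0.33), although 12 of them lay below 0. The widest were Cebpa, a transcription factor of adipocytes, at -0.89 (787 against 1559), and G0s2, an inhibitor of lipolysis, at -0.85 (984 against 1863). Of 12 bone genes 1 was at least 1 higher, the phosphate-regulating peptidase Phex at 1.13 (139 against 23.2), with a median of -0.03.

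Enzymes of retinoid metabolism stood on both sides. They were in no list and were picked out after their values were seen. Aldh1a1, a retinaldehyde dehydrogenase gene of chromosome 19, had 249.7 normalised reads in H3.3 K36R, against 7.44 in H3.3 WT. Its neighbour Aldh1a7, a rodent copy whose part in retinoid metabolism is not assumed here, had 368 against 9.29. The other 6 libraries lay at 1.95 to 74.3 for Aldh1a1 and 0 to 45.9 for Aldh1a7, so K36R stood alone at the top. As close paralogs these genes may share reads, and how the counts divide between them is uncertain. Aldh1a3, a retinaldehyde dehydrogenase gene like Aldh1a1, was -1.86 (141 against 782), and Dhrs3, a retinaldehyde reductase, -1.55 (1186 against 3693).

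Signalling genes with a difference of 1 or more included ligands, antagonists, binding proteins and receptors. The WNT list, which leaves out the receptor Fzd3 given above at 2.68, had 2 of 25 at least 1 higher and none lower (median 0.11): Wnt5a, a ligand of non-canonical signalling, had 384 normalised reads in H3.3 K36R, against 63.2 in H3.3 WT (1.61), and Sfrp1, a secreted antagonist, 665 normalised reads in H3.3 K36R, against 142 in H3.3 WT (1.64). Both were higher again in the H3.1 lines, Wnt5a at 787 and Sfrp1 at 2101 in H3.1 K36R. Of 26 BMP and TGF-beta genes 1 was at least 1 higher, the BMP antagonist Grem1 at 1.91 (2406 against 556), with a median of 0.16. Axon guidance genes had 3 of 31 at least 1 higher and none lower (median 0.15). Plxna4, a semaphorin receptor, had 967 normalised reads in H3.3 K36R, against 131 in H3.3 WT, Efnb2, an ephrin ligand, 1712 normalised reads in H3.3 K36R, against 414 in H3.3 WT, and Epha7, an ephrin receptor, 2171 normalised reads in H3.3 K36R, against 684 in H3.3 WT. K36R was the highest of the 8 libraries for all 3. For Epha7 and Plxna4 the next highest was H3.1 K36R, at 1420.2 and 589.

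Of 28 kept genes of the FGF, PDGF and VEGF list 1 was at least 1 lower (median 0.34), the receptor Fgfr2 at -1.66 (267 against 1078). Fgfr2 was highest in the other K36R line, H3.1 K36R, at 2376 normalised reads. Among members of the list at least 1 higher was Etv5, an ETS factor induced by FGF signalling, at 1.10 (1392 against 586). The IGF axis had 2 of 15 at least 1 lower and none higher (median -0.11). Igfbp5, an IGF-binding protein, had 9.50 normalised reads in H3.3 K36R, against 165 in H3.3 WT (-1.59), with 0 to 32.4 in the other 6 libraries, so WT stood alone at the top. Pappa2, a protease of IGF-binding proteins, was -1.005 (774 against 1671). Of 20 Hedgehog and Notch genes 1 was at least 1 higher, the Notch target Hey1 at 1.21 (1043 against 387), with Gli1 at -0.06 and Notch1 at -0.19. Of 22 CCN and YAP target genes 1 was at least 1 lower, Ankrd1 at -1.22 (95.9 against 353), although the median of the list was 0.18.

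Immediate early and stress genes respond within minutes to serum, handling or damage. Of 35 kept, none was at least 1 higher and 3 were at least 1 lower (median -0.08): the nuclear receptor Nr4a1 had 1987 normalised reads in H3.3 K36R, against 5349.6 in H3.3 WT (-1.38), Egr3 167 normalised reads in H3.3 K36R, against 594 in H3.3 WT (-1.36) and Atf3 1027 normalised reads in H3.3 K36R, against 2463 in H3.3 WT (-1.17). Other members of the same response lay close to 0, Fos at 0.22 (6186 against 5295) and Egr1 at -0.08 (2528 against 2669). Interferon-stimulated genes had 2 of 27 at least 1 lower and none higher (median -0.20), Trim30a at -1.20 (9.50 against 104) and the viral entry inhibitor Ifitm3 at -1.01 (3586 against 7367). Of 8 chemokines 1 was at least 1 higher, the monocyte attractant Ccl2 at 1.47 (1523 against 475), and none of 15 cytokine genes reached 1 (medians 0.26 and 0.21). Complement genes had 2 of 14 at least 1 higher (median 0.01): Cd55, which protects cells from complement, at 1.83 (324 against 30.7), and Masp1, a protease of the lectin pathway, at 1.003 (16935 against 8389.7). For Cd55 the WT library was the lowest of the 8, the 6 libraries outside the pair lying at 65.6 to 592. Hypoxia genes had 1 of 29 at least 1 lower, Adm, or adrenomedullin, at -1.26 (706 against 1859), with a median of 0.15. None of 18 genes of MHC class I antigen presentation reached 1 (median -0.05).

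The machinery that writes and reads H3K36 methylation differed little between the libraries. Setd2, the trimethylase, had 7252 normalised reads in H3.3 K36R, against 6588 in H3.3 WT (0.14), and the enzymes for lower methylation states differed by 0.11 (Nsd1), -0.11 (Whsc1, or Nsd2), -0.03 (Whsc1l1, or Nsd3) and 0.01 (Ash1l). None of 10 H3K36 methyltransferase genes and none of 21 demethylases and readers reached 1 (medians 0.06 and 0.01). Ezh2, the catalytic subunit of PRC2, had 3422 normalised reads in H3.3 K36R, against 3343 in H3.3 WT (0.03), and none of 30 PRC2 and PRC1 genes reached 1 (median -0.05). Phf19, a PRC2 partner that binds methylated H3K36, had the widest difference of these lists at -0.76 (718 against 1295). None of 14 H3.3 genes and H3 chaperones, 10 DNA methylation enzymes, 38 cell cycle and replication genes, 33 replication-dependent histone genes and 49 cytosolic ribosomal protein genes reached 1, and their medians were -0.12, -0.05, -0.06, -0.18 and -0.06. Limb and mesenchyme transcription factors (30 kept), CDK inhibitors and p53 targets (19) and cholesterol synthesis genes (26) also had none past 1, with medians of 0.05, 0.19 and -0.05. Nearest to 1 were the forkhead transcription factor Foxf2 at 0.97 (521 against 214) and the antiproliferative p53 target Btg2 at -0.95 (5148 against 10043). Of 9 Hox genes 1 was at least 1 lower, Hoxc13 at -1.03 (7.60 against 77.1), and of 4 keratin and envelope genes 1 was at least 1 higher, Krt15 at 1.25 (277 against 64.1). Over all lists, 31 of 822 kept genes (3.77%) were at least 1 higher and 17 (2.07%) at least 1 lower, against 1.10% and 0.714% of all genes kept. The lists were written with earlier results of these data known, so nothing is read from that excess.

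Some genes with wide differences were next to each other among the genes kept. Of the 254 genes, 236 had a position in the annotation (GENCODE M21 on GRCm38, matched by symbol). Of these, 32 formed 14 runs of genes next to each other among the genes kept with differences of at least 1 in the same direction, 8 runs higher and 6 lower. All but 1 of the runs were pairs, among them Pde3b and Sox6 on chromosome 7, Aldh1a1 and Aldh1a7 on chromosome 19, Slurp1 and Lypd2, genes of small Ly6-type proteins, on chromosome 15, and Itgbl1 and Fgf14 on chromosome 14. Genes of a run can lie apart, as the span of Pde3b ends at 114539251 and that of Sox6 begins at 115470872. The pair of Ppp1r1b and 1700003D09Rik overlaps on opposite strands, so the reads of these genes cannot be separated. The spans of Macrod2 and Flrt3 on chromosome 2, and of Med12l and Igsf10 on chromosome 3, also overlap. How often such runs arise by placement alone was not counted, so nothing is read from their number.

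The longest run was 6 clade B serpin genes, inhibitors of intracellular proteases, at 32842092 to 33094380 on chromosome 13. All 6 were higher in H3.3 K36R: Serpinb1a by 1.06 (11384 against 5389), Serpinb1c by 1.09 (291 against 86.4), Serpinb6b by 1.88 (865 against 158), Serpinb9 by 1.39 (20652 against 7816), Serpinb9b by 1.35 (24104 against 9413) and Serpinb1b by 1.28 (386 against 102). The WT library was the lowest of the 8 for 5 of the 6, the exception being Serpinb1a, for which K36M and K36I were lower. K36R was the highest of the 8 for Serpinb1a, Serpinb1c and Serpinb9. Farther along the same chromosome Serpinb6c and Serpinb6a differed by 0.33 and 0.48. In the serpin cluster of chromosome 1, Serpinb7 was 1.89 (2499 against 589), with Serpinb8 at 0.39 and Serpinb11 at -0.07. These genes were picked out after their values were seen, and reads shared between such close copies may be divided between them in ways the sources used here do not give.

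**Figure D4:**
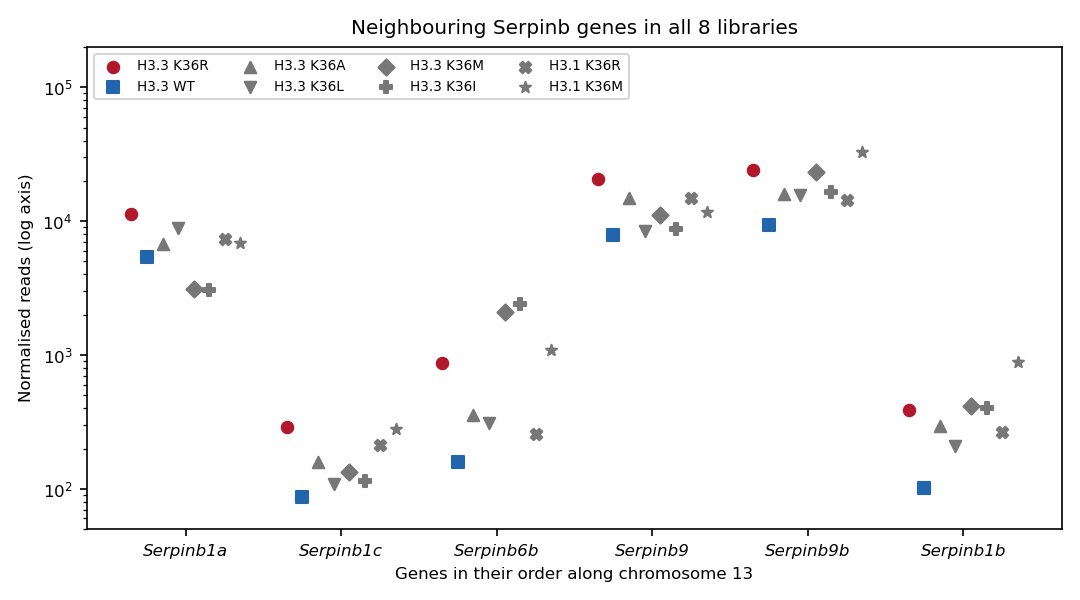
Normalised reads (vertical log axis) of the 6 neighbouring Serpinb genes of chromosome 13 (horizontal axis, in order along the chromosome) in each of the 8 libraries, 1 symbol per library, with H3.3 K36R in red and H3.3 WT in blue. The red point lies above the blue one for all 6 genes, from 11384 against 5389 for Serpinb1a to 386 against 102 for Serpinb1b.

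The medians of 3 whole chromosomes differed between the libraries. Over the 12185 genes placed (87.0% of those kept), the median difference was 0.18 on chromosome 13, 0.21 on chromosome 18 and -0.23 on chromosome 15, while the other 17 chromosomes lay between -0.06 and 0.05. On chromosome 15 only 14.9% of genes were above 0, and on chromosomes 13 and 18 the share was 75.1% and 81.2%. On chromosomes 15 and 18 the shift ran along the length. Each chromosome was divided into 12 blocks of consecutive genes. Block medians were all below 0 on chromosome 15 (-0.29 to -0.14) and all above 0 on chromosome 18 (0.12 to 0.59). On chromosome 13, 10 were above 0 and 2 below (-0.14 to 0.31). Relative to the mean of the other 7 libraries, the shifts belonged mainly to WT on chromosomes 13 (0.03 in H3.3 K36R and -0.16 in H3.3 WT) and 18 (0.06 and -0.19), and to both on chromosome 15 (-0.14 and 0.13). H3.3 K36L stood near WT on chromosomes 13 (-0.15) and 18 (-0.20), and at 0.24 on chromosome 15, where H3.1 K36R and H3.1 K36M were at -0.14 and -0.12. The Serpinb run lies on chromosome 13, and its 6 differences all exceed the chromosome's median. Cdh18, Cdh10 and Slc2a13 lie on chromosome 15 and go against its median, whereas Slurp1, Lypd2, Nr4a1 and Hoxc13 go with it. Whether the lines differ in the number of copies of these chromosomes was not tested. Differences of genes on them are given without removing the chromosome's median. With chromosome medians subtracted, 136 genes were at least 1 higher and 88 at least 1 lower.

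**Figure D5:**
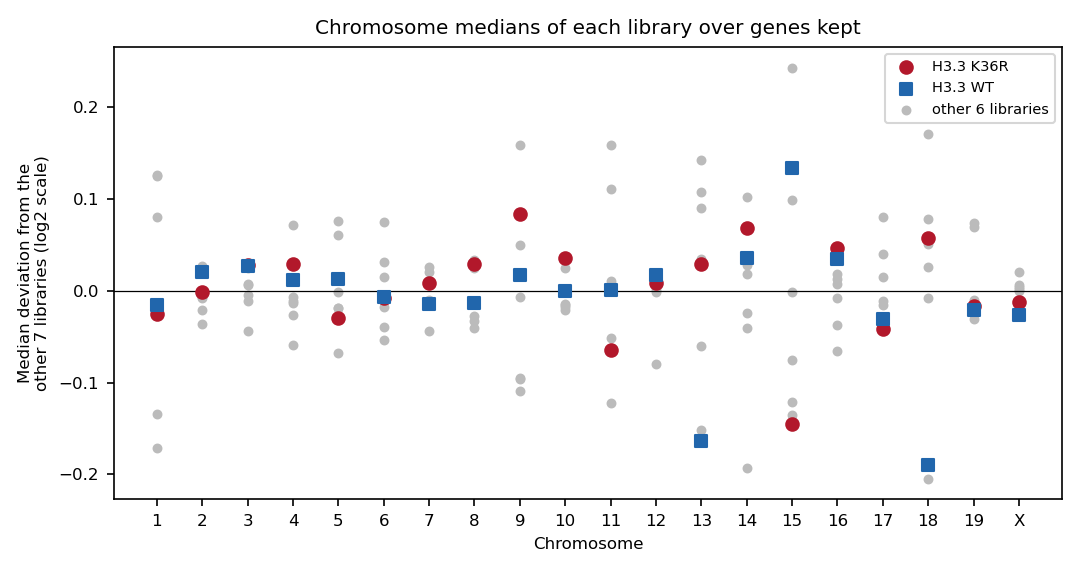
Median deviation of each library from the mean of the other 7 (vertical axis, log2 scale) over the kept genes of each chromosome (horizontal axis), after setting each library's median over all genes to 0; red circles are H3.3 K36R, blue squares H3.3 WT and grey points the other 6 libraries. H3.3 K36R and H3.3 WT part on chromosomes 13 (0.03 and -0.16), 15 (-0.14 and 0.13) and 18 (0.06 and -0.19).

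The X chromosome had no such shift of its median (0.01) but held a larger share of wide differences, 14 of its 393 genes (3.56%) being at least 1 higher, against 1.10% of all genes kept, and 6 (1.53%) at least 1 lower, against 0.714%. Among the 14 were Gabra3, a subunit of the GABA receptor, at 1.99 (329.5 against 22.3), Smarca1, an ISWI chromatin remodeller, at 1.70 (224 against 16.7), and Rnf128, a ubiquitin ligase of T-cell anergy, at 1.68 (144 against 3.72). Mageh1, like Ndn of the MAGE family, was 1.77 (142 against 1.86), which rests on 150 reads in H3.3 K36R and 2 in H3.3 WT, a ratio of 76.6 (20.8 to 639). Fhl1, a LIM-domain protein of muscle, was 1.12 (10226 against 4630.3), and 2 of the Armcx genes passed 1, Armcx2 at 1.07 (9790.1 against 4605) and Armcx1 at 1.02 (2617 against 1229). Long genes were also more often in the higher group: of 4 equal bins by the span of the gene, the longest had 2.46% at least 1 higher, against 0.689% in the shortest, and the shares at least 1 lower were 1.08% and 0.820%.

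The uncharged K36A and K36L lines show on which side of a difference the K36R or the WT library lay. Of the 154 higher genes, K36R was above both K36A and K36L for 144, where 36.6% of all genes kept are so placed, and WT was below both for 89, where the share over all genes is 32.0%. For 31 of the 154, WT lay between K36A and K36L, and for 34 it lay above both. Of the 100 lower genes, K36R was below both for 84 (34.8% of all genes) and WT above both for 55 (32.8%). The choice of genes by K36R minus WT favours these placements, so nothing is read from the counts against those shares.

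The H3.1 lines give values the choice of genes did not use. H3.1 K36R minus the mean of H3.3 K36A and K36L reached at least 1 higher for 46 of the 154 higher genes (29.9%) and for 2.70% of all genes kept, with a median of 0.60. It reached at least 1 lower for 37 of the 100 lower genes, against 1.53% of all genes, with a median of -0.66. In the opposite directions there were 7 of the 154 and 13 of the 100. This contrast also sets H3.1 against H3.3, so the residue and the histone cannot be told apart in it. It carries chromosome shifts in the directions of H3.3 K36R minus WT as well. On chromosomes 13, 15 and 18 the median deviations were 0.11, -0.14 and 0.17 in H3.1 K36R. They were -0.15, 0.24 and -0.20 in K36L and 0.03, -0.001 and 0.03 in K36A. The part of these shifts in the counts was not tested. H3.1 K36M minus the mean of H3.3 K36M and K36I, which has the same change of histone and no arginine, was at least 1 higher for 39 of the 154 (25.3%, against 3.25% of all genes) with a median of 0.31, and at least 1 lower for 16 of the 100 (1.36% of all genes) with a median of -0.17. Its counts the other way were 7 of the 154 and 10 of the 100. Against the 5 libraries outside the pair, H3.1 K36R was the highest for 46 of the 154 (19.7% of all genes) and the lowest for 24 of the 100 (18.8% of all genes). It was the lowest for 24 of the 154 and the highest for 17 of the 100. Among the 30 genes with the widest differences, those placed in the direction of their difference were Tenm3, Mest, Fzd3, Rnf130, Slc2a13, Aldh1a7, Plxna4 and Npy1r at the high end, and Pde3b, B4galnt2, Aim2, Efemp1, Medag and Igfbp5 at the low end. Placed against their difference were Plag1 at the low end and Clec11a and Fgfr2 at the high end.

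A fit over all 8 libraries put the arginine lines to a test against the spread between lines. With terms for the K36M and K36I class and for the histone, limma compared both K36R lines with H3.3 WT, K36A and K36L over 14215 genes, and 2 fell and 0 rose in the K36R lines at a Benjamini-Hochberg adjusted p under 0.05 (0.0141% called, two-sided), where 960 genes (6.75%) had an unadjusted p under 0.05. Gria3, a subunit of AMPA-type glutamate receptors on the X chromosome, fell by 1.63 on the log2 scale (SE 0.14, limma adjusted p = 0.0435). It had 269 normalised reads in H3.3 K36R and 377 in H3.1 K36R, against 960.1 in H3.3 WT, 917 in K36A and 1114 in K36L. The K36M and K36I lines had 1278 to 2242, so both K36R libraries were the lowest of the 8. AI662270, a transcript of chromosome 11 whose exons overlap those of Gm11427, has a clone-type name that the naming rule leaves out and is given because the count is small. It fell by 2.65 (SE 0.22, limma adjusted p = 0.0435). AI662270 had 177 normalised reads in H3.3 K36R and 64.5 in H3.1 K36R, against 1449 in H3.3 WT, 1717 in K36A and 2382 in K36L.

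Neither call held when H3.3 K36A, K36L, K36M or K36I was left out, when the histone term was dropped or with libraries weighted by quality. Leaving out H3.1 K36R, H3.1 K36M or both left the same comparison, in which the K36R term rested on H3.3 K36R alone. The estimates were then -1.54 for Gria3 and -2.75 for AI662270. Without H3.3 K36R the term rested on H3.1 K36R alone, with estimates of -1.86 and -2.39. Without H3.3 WT, AI662270 was called and Gria3 was not. Over the alternatives the limma adjusted p ranged from 0.0208 to 0.242 for each of the 2 genes. Over the same alternatives the log2 estimate stayed between -1.36 and -1.86 for Gria3 and between -2.39 and -3.15 for AI662270. AI662270 was also among the 7 genes at least 2 lower in H3.3 K36R than in H3.3 WT (-2.45). Of the 30 genes named for the widest differences, 28 were tested in this fit and 0 were called, with limma adjusted p from 0.132 to 0.942. Aldh1a7 and Igfbp5 were below its limit on the 8-library mean and were not tested. A second fit of the same kind set the K36R, K36A and K36L lines against the lone H3.3 WT library, assumed to vary like the others, and called 0 of 14215 genes (0.00%) with limma, the smallest adjusted p being 0.712 and 267 genes (1.88%) having an unadjusted p under 0.05. These p-values measure the spread between lines that carry different transgenes.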

How the data were processed

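RNA-seq libraries were made from Trizol-extracted total RNA by the Illumina TruSeq protocol, per the labels' protocols. Trimmomatic 0.32, STAR 2.3.0e, featureCounts 1.4.4 and an unversioned DESeq2 are named as tools, and mm10 as the build, per the submitters' processing notes. Neither their settings nor the annotation and strandedness of the counting is given in the sources used here. The authors deposited variance-stabilised log2 values, made from gene read counts scaled by a size factor for each library and uncorrected for length. The transformation shrinks differences where reads are few.

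The shared lowest value, 5.95, stands for 0 reads. Solving the parametric transformation for reads gave whole reads for 100% of values (within 0.001 reads); normalised reads are these divided by the size factor (1.05 in H3.3 K36R and 1.08 in H3.3 WT). A count of 0 allows up to 3 reads, for counting error only. Ratios carry 95% exact (Clopper-Pearson) conditional binomial intervals. All columns of the table were used (0 left out).

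Differences between libraries were counted where they reached 1, without a test. The fits over 8 libraries used limma (version 3.58.1, under R 4.3.3) with a trend on the mean, for the genes whose 8-library mean passed the same limit, and were tested on simulated data. The unit and designs were as planned.

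The comparison and the 49 gene lists (1118 genes, 1094 in the table) were chosen with earlier results of these data known. Of the Serpina3 list 2 genes were kept and none was past 1; 0 proliferin genes were kept, and 0 mitochondrially encoded genes were among the rows used. The naming rule took the 15 highest and 15 lowest differences, leaving out predicted genes, pseudogenes, clones and small RNA genes, up to 4 list members past 1 or else the 2 widest, called genes of the fits with the same exclusions, and 8 chromatin genes in any case. It named 117 genes, 115 of which were placed on GRCm38 with GENCODE M21, and 31 of these overlap exons of another gene, 26 on the opposite strand. Others (Meg3, Rian, Igf2r, H19, Cdh1, Cdh2, Dcn, Acta2, Myh11, Cnn1, Sox9, Col2a1, Aldh1a1, Dhrs3, Gli1, Notch1, Fos, Egr1, the serpins and the X-linked genes) were named after their values were seen. The result of 1 listed gene is not reported here.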

Additional observations from a re-analysis of the deposited data

How the results depend on the processing

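No paired analysis was possible because each transgene had 1 library and the groups share no replicates to pair. The counts of 154 higher and 100 lower genes were 172 and 102 without the filter, 106 and 82 with a filter at 2 above the lowest value, 154 and 97 with library medians set equal, 147 and 89 without predicted and small RNA genes, and 136 and 88 with chromosome medians subtracted. On the scale of log2(normalised reads + 1), which shrinks the differences of genes with few reads less, they were 336 and 276. Of 160 recomputed list medians, 153 moved by less than 0.1. Those that moved by more were, with chromosome medians subtracted, replication-dependent histones (-0.36), cartilage (-0.13), limb transcription factors (-0.06, against 0.05) and cadherins (0.49). With the filter at 2 they were bone (-0.34) and skeletal muscle (0.30), and on the scale of log2(normalised reads + 1) adipocyte genes (-0.43).

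The limma fit of the K36R lines called 2 genes. It called 5 without the filter (Cdkn2b, Foxp2 and Aldh1a7 in addition), 0 with array weights and 0 without the histone term. It called 4 without H3.3 WT (Cytl1, Gm773, AI662270 and AK053109) and 0 without H3.3 K36A, K36L, K36M or K36I. Without H3.3 K36R, without either H3.1 library or with H3.3 libraries only, the K36R term rested on 1 library, so no calls are given. The WT fit called 0 under each alternative run. The cause of these changes was not tested.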

Other observations

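Leukocyte, epithelial, endothelial and neural markers that passed the filter differed by less than 1 between the libraries. The summed level of the leukocyte list was 371 normalised reads in H3.3 K36R and 223 in H3.3 WT, with 354 to 14673 in the other 6 libraries, and its kept members were Cd53 (156 against 39.0), Cd68 (104 against 117) and Lcp1 (74.1 against 52.98). The epithelial list summed to 1058 in H3.3 K36R and 1826 in H3.3 WT (563 to 7846 elsewhere), most of it Krt14 (764 against 1462). The endothelial list, almost all of it the angiopoietin receptor gene Tek (2634 against 1597), summed to 2679.7 and 1664 (325 to 3265 elsewhere). Microtubule-associated Map2 (15698 against 12738) and the tubulin gene Tubb3 (2439 against 1883) of the neural list were expressed in all libraries. The part of any of these in the differences above was not tested.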
